A study of Bos grunniens and Bos grunniens x Bos taurus with 6 samples.

Results

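The genes described here carry the names of 5 sperm gene groups: SPATA (spermatogenesis associated), SPAG (sperm associated antigen), ODF (outer dense fibre), TSSK (testis-specific serine kinase) and TEKT (tektin). They were chosen by symbol alone, as every symbol of the files that starts with one of these names or with ROPN1 and has at least 5 unique molecular identifiers (UMIs, counted RNA molecules) over the 6 libraries. The rule found 42 genes among 26961 features: 22 SPATA, 6 SPAG, 6 ODF, 4 TSSK and 4 TEKT genes. No ROPN1 symbol was matched, and every matched symbol reached the 5 UMIs, the lowest being ODF3L2 with 15 and TSSK6 with 40. The rule used no difference between cells or libraries, but it was set with earlier results of these data known. Outside the TSSK and TEKT families a shared name does not by itself denote related proteins. Some members there are relatives, such as SPATA5 and SPATA5L1 or ODF2 and ODF2L.

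Frozen yak testis was dissociated with enzymes and its single cells were sequenced in 10x Genomics libraries. The groups were 6-month-old prepubertal yak (replicates 1 and 2), 18-month-old adolescent yak (replicates 3 and 4), 1 sexually mature yak aged 4 years (replicate 5) and 1 cattle-yak, the hybrid of cattle and yak, after sexual maturity. The labels give no genotype or treatment, and none ties a replicate to its own animal, and the p-values then describe no more than how these libraries scatter, which may be technical. Only 6 and 18 months could be tested against each other, since 4 years and the cattle-yak had 1 library each.

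A sperm is built by a germ cell that first divides as a spermatogonium, then goes through meiosis as a spermatocyte, and finally reshapes itself as a round and then elongating spermatid. The spermatid builds the axoneme (the microtubule core of the tail), sheathes it in outer dense fibres and forms the acrosome over the nucleus. It also replaces histones by transition proteins and then protamines. In mammals much of the RNA for these parts is made ahead of the step that needs it. Cattle-yak males are sterile and their germ cells largely fail at meiosis.

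Germ cells were gated by raw UMIs of marker genes outside the 42: a cell needed at least 3 UMIs from at least 2 genes of a list and took the latest stage it passed. In the 4-year library 139 cells passed as spermatogonia, 247 as early spermatocytes, 204 as late spermatocytes and 603 as spermatids. Gated germ cells made up 0.541% and 0.600% of kept cells in the 6-month libraries and 9.43% and 7.96% in the 18-month libraries. Their share was 26.1% in the 4-year library and 2.06% in the hybrid. The cattle-yak library held 34 spermatogonia, 37 early spermatocytes, 4 late spermatocytes and 0 spermatids among 3642 kept cells. Most kept cells passed no germ cell gate, although the labels tag every sample "Germ cell". At 18 months the early and late spermatocyte gates took cells of high depth (medians of 16421 and 32934 UMIs in replicate 3, against 2132 in its spermatogonia). When a cell was given the stage with the most marker UMIs, the early spermatocytes there numbered 10 and not 112 in replicate 3, and 4 and not 50 in replicate 4. Spermatocyte levels at 18 months are therefore not given.

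The 42 genes were scarce before puberty and abundant at 4 years. Their summed level in the 6-month libraries was 282 and 275 CPM (UMIs of a gene scaled to 1 common total, over the kept cells). It was 580.0 and 448 CPM in the 18-month libraries, 4468 CPM in the 4-year library and 433 CPM in the hybrid. At least 1 CPM was reached by 13 of the 42 genes in each 6-month library, by 28 in replicate 3, 18 in replicate 4, 39 in the 4-year library and 18 in the cattle-yak. The highest level lay in the 4-year library for 39 genes, and 19 genes had at least 90% of all their UMIs there. No like counts were made over all features, so how particular these counts are to the 42 genes is not known. In the cattle-yak 20 of the 42 levels lay within the range of the 18-month libraries, 18 lay below both and 4 above both. Over 19901 features with at least 5 UMIs, 36.4% lay within that range, 42.5% below and 21.1% above. In these whole-library sums, fewer cells of a type and less RNA per cell cannot be told apart.

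**Figure D1:**
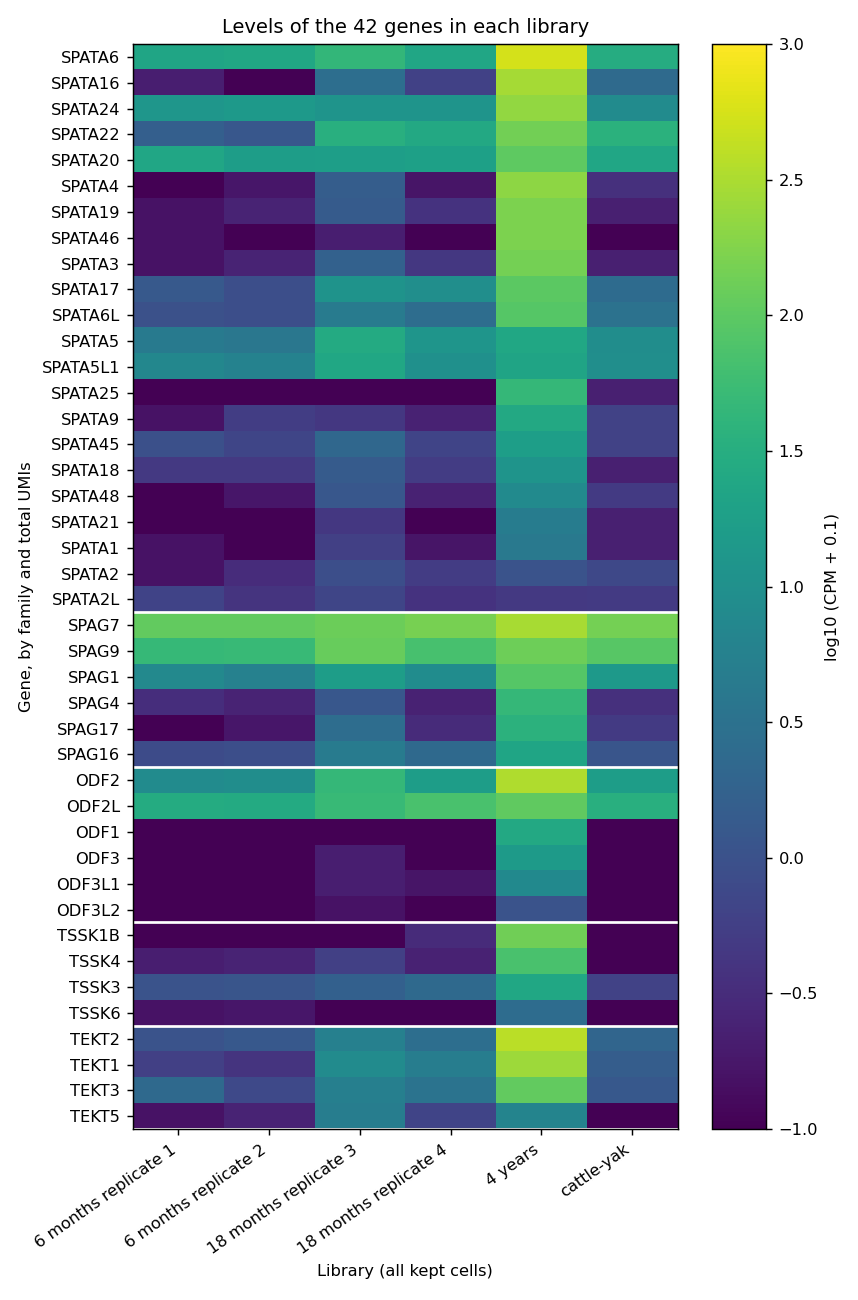
Level of each of the 42 genes (rows, by family and total UMIs) in each library (columns), as the log10 of CPM plus 0.1. The 4-year column is the brightest for 39 genes, while 10 genes at 6 months in each replicate and 9 genes in the cattle-yak had no UMI and appear darkest.

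The families differed in how closely they kept to the 4-year library. The TSSK kinases, which phosphorylate sperm proteins after meiosis, summed to 1.13, 1.24, 2.02 and 2.59 CPM in replicates 1 to 4, against 235 CPM at 4 years and 0.513 CPM in the cattle-yak. The tektins, filament proteins inside the doublet microtubules of the axoneme, summed to 3.70, 2.27, 23.9, 11.5, 762 and 4.49 CPM in the same order. The ODF genes summed to 37.2, 36.5, 95.03, 87.5, 484 and 49.8 CPM. In the SPAG group the sums were 165, 166, 269.6, 229.8, 628 and 252 CPM; SPAG7 and SPAG9 made up most of the prepubertal sum. The SPATA sums were 74.9, 69.0, 189, 116, 2358 and 126 CPM.

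In the 4-year library most of the genes peaked in spermatids. Of the 39 genes with at least 20 UMIs over the gated germ cells, 30 were highest in spermatids, 6 in late spermatocytes, 3 in early spermatocytes and 0 in spermatogonia. Among all 10539 features with as many UMIs, 27.1% were highest in spermatids, 19.9% in late spermatocytes, 29.1% in early spermatocytes and 23.8% in spermatogonia. Onset was set as the first stage with at least 20% of the highest stage and at least 5 UMIs. By that measure 20 genes began in spermatids (10.9% of all features did), 11 in late spermatocytes (9.49%), 4 in early spermatocytes (21.4%) and 4 in spermatogonia (58.1%). These are descriptions of 1 library, and ODF3L2, SPATA2 and SPATA2L had too few UMIs to be placed.

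**Figure D2:**
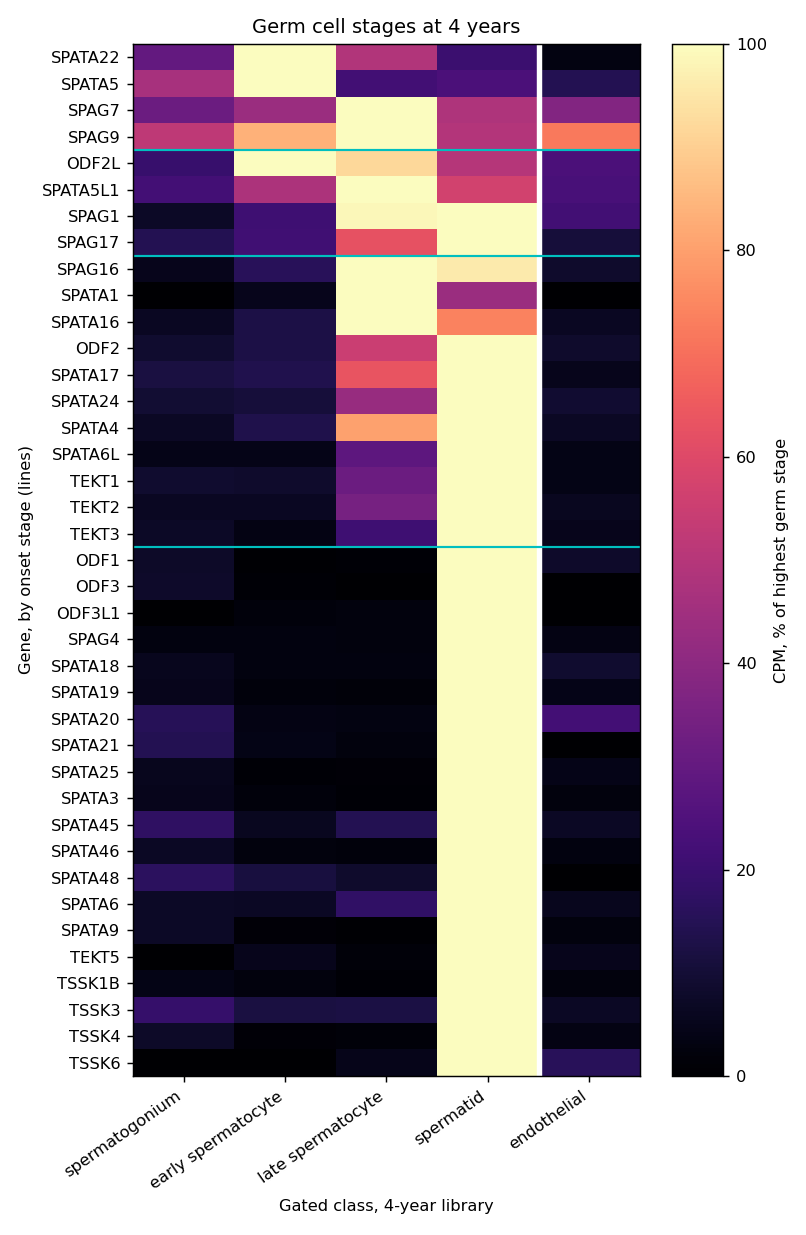
CPM of 39 genes in the 4 germ cell gates of the 4-year library and in its endothelial gate, each as a percent of the gene's highest germ stage, with lines between onset groups. The 20 genes under the lowest line are bright only in spermatids, and the 4 genes at the top are bright before them.

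The 3 genes highest in early spermatocytes were SPATA22, SPATA5 and ODF2L. SPATA22 (ENSBGRG00000022199), a partner of MEIOB in meiotic recombination, stood at 127 CPM in spermatogonia, 428 CPM (exact Poisson 95% interval 397 to 461) in early spermatocytes, 210.3 CPM in late spermatocytes and 86.6 CPM in spermatids. It was at 14.3 CPM in endothelial cells of the same library, so each germ gate lay above that level. SPATA5, an AAA ATPase of ribosome maturation, was also highest in early spermatocytes, at 81.6 CPM against 38.0 CPM in spermatogonia, 17.6 CPM in late spermatocytes and 19.5 CPM in spermatids. Its relative SPATA5L1 was highest in late spermatocytes at 40.8 CPM. ODF2L, a centrosomal relative of ODF2, had 38.0, 197, 182 and 98.1 CPM over the 4 stages and so was lower in spermatids than in either spermatocyte gate, unlike ODF2.

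SPAG7 and SPAG9 were not restricted to germ cells. SPAG9, a scaffold of JNK signalling present in many tissues, had 103, 165, 197 and 96.9 CPM from spermatogonium to spermatid, and 142 CPM in endothelial cells. SPAG7 had 183, 251, 578 and 279 CPM, with 217 CPM in endothelial cells. In the other libraries endothelial cells held SPAG9 at between 103 and 142 CPM and SPAG7 at between 134 and 152 CPM against the 217 CPM at 4 years.

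The 11 genes with onset in late spermatocytes include 3 of the 4 tektins. TEKT2 had 67.0 CPM in spermatogonia, 66.4 CPM in early spermatocytes, 359 CPM in late spermatocytes and 1033 CPM in spermatids. TEKT1 had 60.3, 57.9, 222 and 695 CPM, and TEKT3 had 24.6, 12.2, 69.2 and 332 CPM in that order. These 3 tektins thus had their onset in late spermatocytes by the measure relative to the highest stage, and peaked in spermatids. By this measure a gene can have UMIs in stages before its onset. TEKT1 already lay above the endothelial level of the same library in spermatogonia (ratio 2.02, counting interval 1.13 to 3.63). It did so in early spermatocytes too (1.94, 1.24 to 3.15). For TEKT2 and TEKT3 the interval spanned 1 in both of these stages.

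SPATA16, a Golgi protein needed to form the acrosome, was instead highest in late spermatocytes, with 40.2, 79.2, 621 and 460 CPM. SPAG16, a protein of the central apparatus of the axoneme, was level between the last stages at 41.9 and 40.2 CPM. SPAG17, of the same apparatus, had 11.2, 16.4, 48.3 and 77.1 CPM, with its onset in early spermatocytes. ODF2, a main protein of the outer dense fibres and of centriole appendages, had 67.0, 94.997, 416 and 755 CPM. SPATA24 had 53.6, 60.3, 239 and 561 CPM, and SPATA4 had 29.0, 57.2, 342 and 425 CPM. SPATA1, SPATA17 and SPATA6L also had their onset in late spermatocytes.

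The 20 genes with onset in spermatids include all 4 TSSK kinases, 3 of the 6 ODF genes, 1 tektin, 1 SPAG gene and 11 SPATA genes. TSSK1B had 20.1, 12.2, 5.61 and 482 CPM from spermatogonium to spermatid, and TSSK4 had 20.1, 3.65, 4.86 and 265 CPM. ODF1, which binds the outer dense fibres together, had 6.70, 0.609, 0.748 and 90.2 CPM. SPATA6, needed for the connecting piece between head and tail, had 123, 113, 298 and 1669 CPM. It fell just short of the 20% for onset in late spermatocytes. SPATA19, a mitochondrial protein of the sperm midpiece, had 29.0, 11.6, 9.73 and 561 CPM. SPATA46, SPATA3 and SPATA25 stood at 586, 527 and 163 CPM in spermatids and at 12.7, 5.99 and 2.24 CPM in late spermatocytes. SPAG4, a SUN-domain protein of the nuclear envelope, had 163 CPM in spermatids and 4.12 CPM in late spermatocytes. SPATA20, a thioredoxin-like protein, had 304 CPM in spermatids and 66.8 CPM in endothelial cells. The rest (ODF3, ODF3L1, SPATA9, SPATA18, SPATA21, SPATA45, SPATA48, TEKT5, TSSK3 and TSSK6) had between 7.62 and 94.8 CPM in spermatids.

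The low levels before onset have to be read against cells that should lack sperm RNA. For the 30 genes highest in spermatids, endothelial cells of the 4-year library held a median of 5.30% of the spermatid level (0% to 22.0%). TEKT2 stood at 60.8 CPM in these endothelial cells, whereas it had 0 UMIs in the endothelial gates of 6-month replicate 2, both 18-month libraries and the cattle-yak, and 1 UMI in 6-month replicate 1. A ratio of each germ stage to the endothelial gate was formed where both held 20 UMIs together. Its exact 95% counting interval lay above 1 in spermatogonia for 4 of 20 genes (SPATA22, SPATA5, SPATA46 and TEKT1). In early spermatocytes it did so for 8 of 23 genes, in late spermatocytes for 19 of 28, and in spermatids for 36 of 38. Over all features with as many UMIs the shares were 35.8%, 47.5%, 41.0% and 46.0% in the order of the stages. SPAG9 lay below the endothelial level in spermatids and SPATA5 could not be told from it. The onset by the 20% measure did not always lie above the endothelial level. The interval spanned 1 in early spermatocytes for SPAG1 (0.60 to 1.59), SPAG17 (0.84 to 5.36) and SPATA5L1 (0.92 to 5.13), whose onset was there. It also spanned 1 in spermatogonia for SPAG7 and SPAG9, whose onset was there.

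Shares of cells with a UMI gave a like picture once each cell was thinned to 1000 UMIs, which left out 151 of 603 spermatids, 25 of 139 spermatogonia and 19 of 278 endothelial cells. SPATA6 was then found in 74.6% of spermatids (exact binomial 95% interval 70.3% to 78.5%) against 26.5% of late spermatocytes and 9.65% of endothelial cells. For TEKT2 the shares were 65.3%, 27.0% and 6.95%. TSSK1B was found in 35.2% of spermatids, 1.00% of late spermatocytes and 1.54% of endothelial cells. SPATA22 was found in 36.3% of early spermatocytes, 5.53% of spermatids and 1.16% of endothelial cells. Unthinned, SPATA6 was found in 84.9% of spermatids and 23.4% of endothelial cells, and SPATA22 in 79.8% of early spermatocytes. Median depth was 1925 UMIs in spermatids, 5051 in early spermatocytes, 6931 in late spermatocytes and 2454 in endothelial cells.

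Summed over the 42 genes, a thinned spermatid held a median of 11 member UMIs per 1000 (quartiles 7 and 16). The median was 4 in late spermatocytes, 2 in early spermatocytes, 1 in spermatogonia and 1 in endothelial cells of that library. At least 5 member UMIs were held by 87.4% of spermatids, 44.5% of late spermatocytes and 1.16% of endothelial cells. No member UMI was found in 0.664% of thinned spermatids and in 30.5% of thinned endothelial cells.

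Spermatids were split further by TNP1, the gene of a transition protein that packs DNA after histones leave, found in 151 of the 603 cells. This split was chosen after the files were seen. Cells with TNP1 were deeper, with a median of 4552 UMIs against 1532. Levels of 26 of the 38 members with at least 20 UMIs were higher in cells with TNP1, by a counting interval above 1, and 9 were lower. Over all 7741 features 27.1% were higher and 44.0% lower. The cells come from 1 library, so these intervals cover counting error only.

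SPATA3 had 1148 CPM with TNP1 and 144 CPM without, a ratio of 7.98. SPATA19 (ratio 6.75), TSSK1B (6.34), SPATA25 (5.996) and SPATA18 (5.01), a mitochondrial quality control protein, followed. ODF1 had a ratio of 4.09, TSSK4 of 2.29 and SPATA6 of 3.09. The tektins had ratios of 2.26 for TEKT1, 2.04 for TEKT2 and 1.55 for TEKT3. Lower levels with TNP1 were found for ODF2L (ratio 0.21), SPATA22 (0.23), SPAG7 (0.28) and SPATA16 (0.54), all with an onset before spermatids. Other genes with such an onset were higher with TNP1, such as ODF2 (1.81), SPATA24 (2.61) and SPAG1 (1.62). Within spermatids of at least 3000 UMIs, where median depth was 7495 with and 8074 without TNP1, 25 of 37 members were higher and 9 lower.

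**Figure D3:**
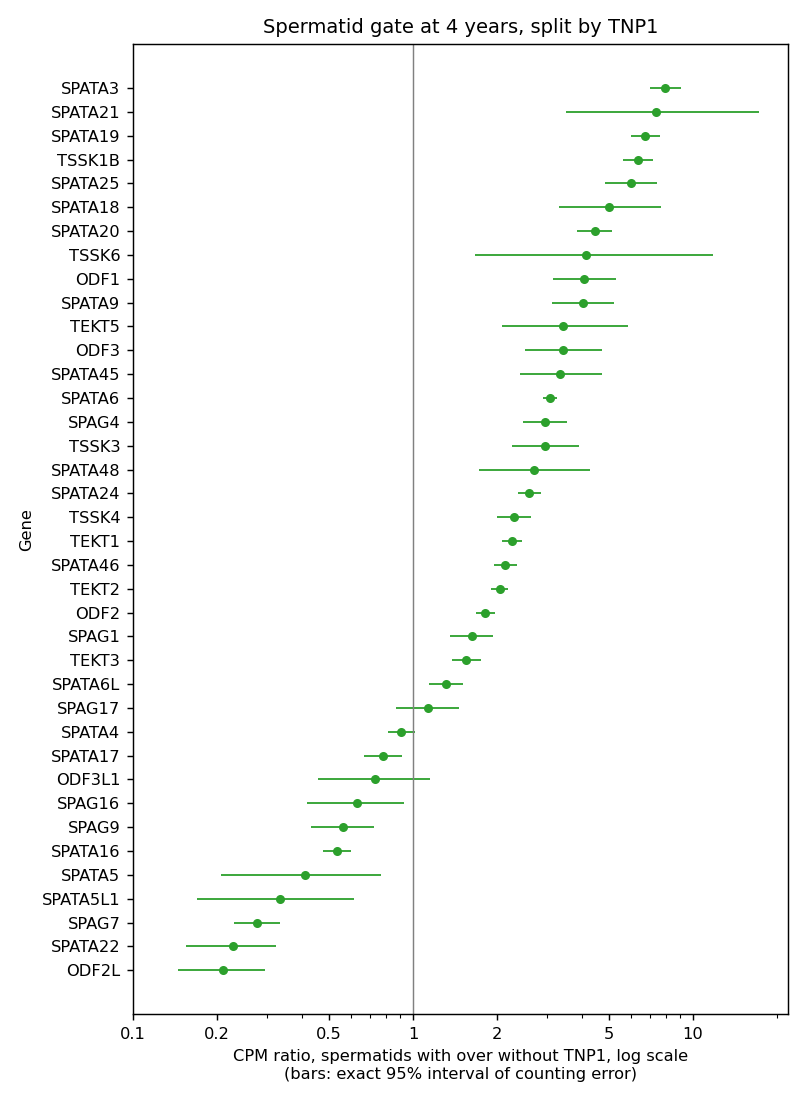
Ratio of CPM in 4-year spermatids with a TNP1 UMI to those without, on a log scale, for 38 genes with exact 95% counting intervals. SPATA3 at 7.98 is at the top and ODF2L at 0.21 at the bottom, with 26 intervals above 1 and 9 below.

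Between 6 and 18 months, 2 of the 19 testable members rose and 0 fell (edgeR quasi-likelihood, Benjamini-Hochberg adjusted p below 0.05 over 13553 genes, of which 1.86% rose and 0.716% fell). SPATA22 (2 libraries per age) had 1.55 and 1.10 CPM in the younger and 33.8 and 25.8 CPM in the older libraries. Both older libraries lay far above both younger ones, with a log2 fold change of 3.45 ± 0.42 (SE, adjusted p = 0.0340). TEKT1 had 0.477 and 0.293 CPM in the younger and 8.27 and 4.89 CPM in the older libraries, a log2 fold change of 2.98 ± 0.53 (edgeR adjusted p = 0.0464). Both calls were lost when any 1 of replicates 1, 2 or 3 was left out, with adjusted p between 0.0542 and 0.199.

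**Figure D4:**
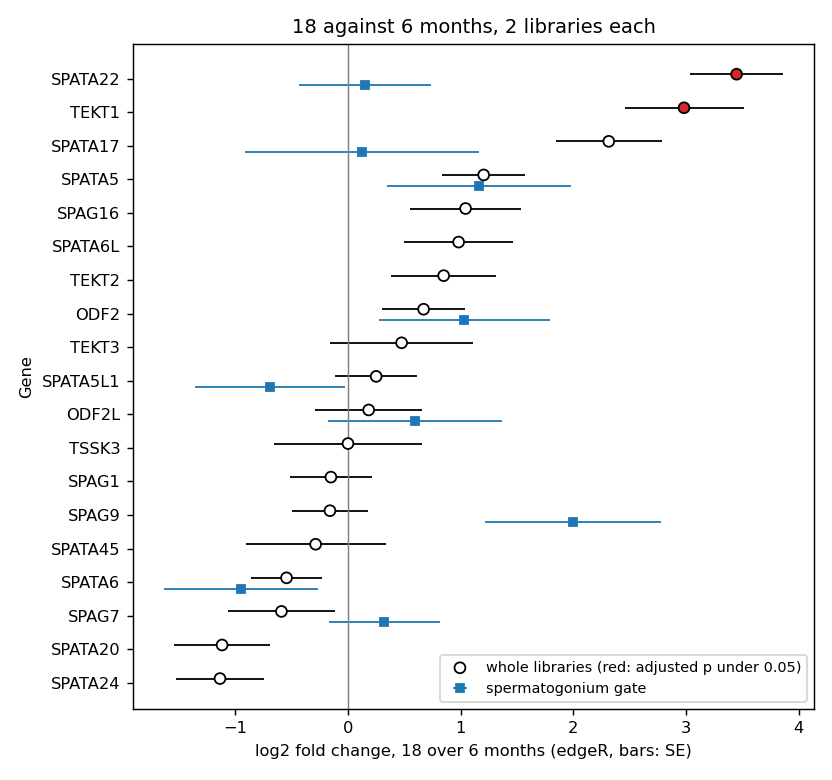
Log2 fold change from 6 to 18 months with its SE for the 19 members tested in whole libraries (circles, red where adjusted p is under 0.05) and for the 9 tested in gated spermatogonia (squares). SPATA22 and TEKT1 are the only red circles, and SPATA22 lies near 0 in spermatogonia.

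Among the other members, SPATA17 had a log2 fold change of 2.31 (adjusted p = 0.0599) and SPATA5 of 1.21 (adjusted p = 0.122). SPATA24 (-1.13) and SPATA20 (-1.11) had negative values with adjusted p of 0.158 and 0.187. The median over the 19 members was 0.25 against -0.04 over all genes. An unadjusted p under 0.05 was found for 6 of the 19, of which 2 were negative, and for 23.0% of all genes. DESeq2 called 3 of 40 members higher (SPATA17 in addition) and 0 lower, against 3.40% and 2.11% of 21262 genes. By CPM alone, 24 of 34 members with at least 5 UMIs had both 18-month libraries above both 6-month libraries, against 59.8% of 18516 features. The TMM scaling factors of edgeR moved all log2 fold changes by 1.03 relative to library totals. Without them 5 of the 19 members rose, as did 21.8% of all genes.

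Within the spermatogonium gate no member passed the test. There SPATA22 had 61.1 and 71.6 CPM at 6 months (8 and 9 UMIs) and 55.6 and 107.7 CPM at 18 months (43 and 87 UMIs). The ages overlapped, with a log2 fold change of 0.15 ± 0.58 (edgeR adjusted p = 0.935). Of 5004 genes tested there, 0.979% rose and 0.42% fell, and 9 were members, of which 1 had an unadjusted p under 0.05. That was SPAG9, with 7.63 and 23.9 CPM at 6 months, 95.6 and 50.8 CPM at 18 months and an adjusted p of 0.198. DESeq2 called 0 members too, with 0 at an unadjusted p under 0.05. The gate held 33 and 31 cells at 6 months. On simulated data for this gate the test recovered 2.00% of 2-fold, 55.3% of 4-fold and 94.7% of 8-fold rises, and 58.7% of 8-fold falls. Sertoli markers summed to 992 and 1233 CPM in these cells at 6 months and to 308 and 374 CPM at 18 months, and their part in the values was not tested.

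Several members differed between the 18-month libraries, where most features were higher in replicate 3. TEKT5 had 4.91 CPM in replicate 3 and 0.559 CPM in replicate 4, near its 6.29 CPM at 4 years in the first case. Replicate 3 held 85 UMIs of TEKT5 but 0 gated spermatids, against 87 UMIs and 603 spermatids at 4 years. The onset of TEKT5 in spermatids thus describes the 4-year library only. SPATA16 had 2.72 and 0.489 CPM, and SPAG17 2.60 and 0.210 CPM. In all, 33 of 42 members were higher in replicate 3, as were 81.8% of 19901 features with at least 5 UMIs. SPATA5 and SPATA5L1 even reached their highest level there, at 28.0 and 24.0 CPM against 24.5 and 21.5 CPM at 4 years. The third member not highest at 4 years, SPATA2L, stood at 0.578 CPM in replicate 3, 0.537 CPM in 6-month replicate 1 and 0.362 CPM at 4 years, on 10, 9 and 5 UMIs.

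All 39 members with at least 20 UMIs in both libraries together were higher at 4 years than in the cattle-yak by a counting interval above 1, as were 46.2% of 13768 features. A gene could pass this limit on its 4-year UMIs alone. Below the limit, the interval spanned 1 for SPATA2 (ratio 1.47, 0.49 to 5.25) and SPATA2L (0.94, 0.18 to 6.05). ODF3L2, also below it, had 13 UMIs at 4 years and 0 in the cattle-yak. No UMI was found in the cattle-yak for ODF1, ODF3, ODF3L1, ODF3L2, SPATA46, TEKT5, TSSK1B, TSSK4 and TSSK6. With 3 counts as the limit that a count of 0 allows, SPATA46 was at least 429-fold lower in the cattle-yak, TSSK1B at least 355-fold, TSSK4 at least 187-fold and ODF1 at least 68.0-fold. Other members that peaked in spermatids were well detected in the cattle-yak, with 232 UMIs of SPATA6, 181 of SPATA20, 129 of ODF2, 108 of SPAG1 and 65 of SPATA24. The ratio of 4 years to cattle-yak was 18.8 for SPATA6, 4.42 for SPATA20, 19.9 for ODF2 and 27.1 for SPATA24. SPATA19 and SPATA3 had 1 UMI each there, against 2243 and 2029 at 4 years. TEKT2 was 199.7-fold (121 to 357) and TEKT1 185-fold (103 to 370.2) higher at 4 years.

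The 4 genes with onset in spermatogonia had ratios between 1.44 and 4.00. SPAG9 had 131 CPM at 4 years and 90.9 CPM in the cattle-yak, a ratio of 1.44, and SPAG7 had 304 and 145 CPM, a ratio of 2.09. SPATA22 had 142 and 35.6 CPM, a ratio of 4.00, and SPATA5 had a ratio of 2.72. The 4 genes with onset in early spermatocytes were further apart, with ratios of 2.32 for SPATA5L1, 3.16 for ODF2L, 6.31 for SPAG1 and 96.8 (32.9 to 471) for SPAG17. The members with the most UMIs in the cattle-yak were SPAG7, SPAG9, ODF2L, SPATA22 and SPATA6. Of these, SPATA6 was the only one highest in spermatids at 4 years, and it was also present in cattle-yak endothelial cells at 65.4 CPM.

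Spermatogonia and early spermatocytes allowed the hybrid to be compared with the yak within a stage. The spermatogonium gate held 34 cattle-yak and 139 yak cells. There the interval of the 4-year to cattle-yak ratio spanned 1 for SPATA22 (0.86, 0.44 to 1.89), SPAG7 (0.65, 0.39 to 1.14) and SPATA5 (0.51, 0.18 to 1.78). SPATA20 and SPATA24 had 21 and 24 UMIs in the yak and 0 in the cattle-yak. The early spermatocyte gate held 37 cattle-yak and 247 yak cells, and the values below are from it. SPATA22 was higher in the cattle-yak, at 571 CPM against 428 CPM (ratio of 4 years to cattle-yak 0.75, 95% counting interval 0.63 to 0.89). After thinning it was found in 57.1% (39.4% to 73.7%) of cattle-yak and 36.3% of yak early spermatocytes. SPATA5 at 0.81 (0.55 to 1.24), SPAG9 at 0.96 (0.71 to 1.31), SPAG7 at 1.25 (0.95 to 1.66) and ODF2L at 1.35 (0.99 to 1.89) had intervals that span 1. When cells took the stage with the most marker UMIs, SPAG9, SPAG7 and ODF2L were higher at 4 years and SPATA5 lower, while SPATA22 stayed lower. Of 20 members with at least 20 UMIs in the pair, 9 were higher at 4 years and 1 lower, against 17.2% and 16.6% of 7126 features. With 1 library each, these intervals hold counting error and no variation between animals.

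**Figure D5:**
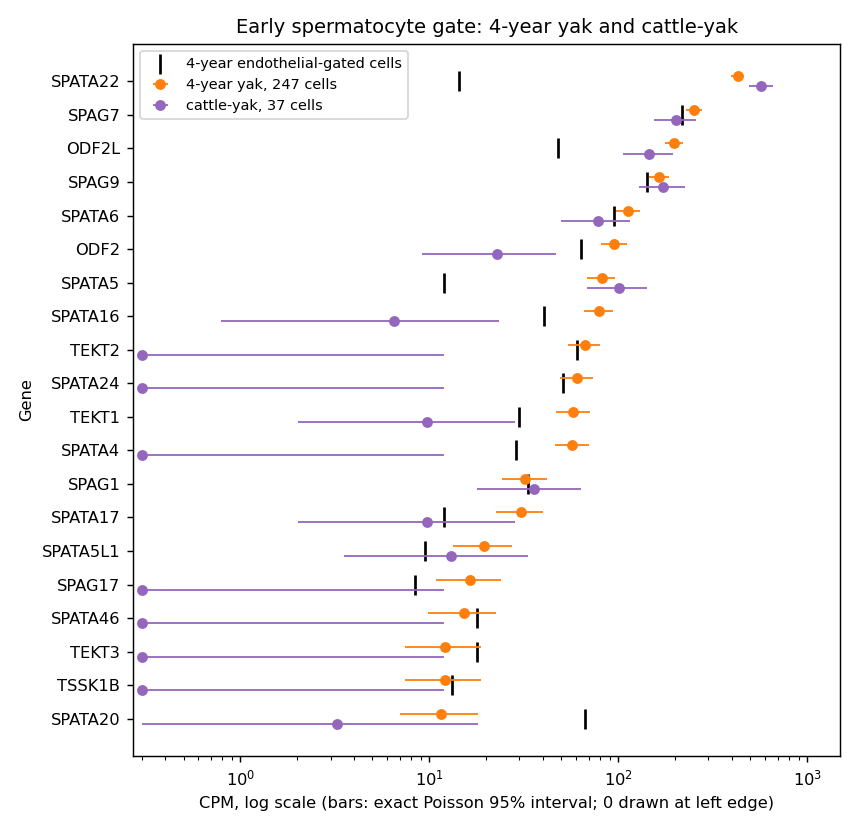
CPM in the early spermatocyte gate of the 4-year yak and of the cattle-yak, on a log scale with exact Poisson 95% intervals, for 20 members, with the 4-year endothelial level as a black tick. SPATA22, at 428 and 571 CPM, lies far right of its tick, whereas the yak values of TEKT2 and SPATA24 lie on theirs.

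The 9 genes higher in yak early spermatocytes were SPATA16, SPATA46, SPAG17, TEKT2, SPATA24, ODF2, SPATA17, TEKT1 and SPATA4. By the stage with the most marker UMIs, SPATA46 lost its call, the other 8 kept theirs, and SPATA6, SPATA6L and SPAG1 were also higher in the yak. SPATA16 had 79.2 CPM against 6.49 CPM (ratio 12.2, 3.31 to 102), and its level in 4-year endothelial cells was 40.6 CPM. TEKT1 had 57.9 against 9.74 CPM (ratio 5.94), with 29.8 CPM in 4-year endothelial cells. TEKT2 had 66.4 CPM against 0 UMIs (at least 6.82-fold lower in the cattle-yak), but 60.8 CPM in 4-year endothelial cells. For TEKT2, SPATA24, SPATA46 and SPAG17 the yak value could not be told from the endothelial level of its own library. For SPATA16, ODF2, SPATA17, TEKT1 and SPATA4 it lay above that level, by 1.95-fold (1.33 to 2.94) for SPATA16. The part of RNA shared between cells of the 4-year library in these ratios was not tested.

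Other sperm genes from lists of known roles were placed in the same way. Of 6 measured tail sheath and anchoring genes 5 were highest in spermatids and 1 in late spermatocytes, and of 12 axoneme genes 4 and 8. Of 8 head and acrosome genes, 5 were highest in spermatids and 3 in late spermatocytes. Of 7 regulators of spermatids, 4 were highest in spermatids, 2 in late spermatocytes and 1, TAF7L, in early spermatocytes. The 1 chromatin gene measured, TNP1, was highest in spermatids. The dynein heavy chain gene DNAH8 had 114 CPM in late spermatocytes and 75.9 CPM in spermatids, whereas the tektins were highest in spermatids. AKAP3, of the fibrous sheath, had 8.98 and 230.4 CPM, the same order as ODF1. Over the 24 genes of all these lists, spermatid regulators included, that were tested between 6 and 18 months, the lowest adjusted p in edgeR was 0.0604, for DNAH8.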

How the data were processed

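Per the file headers, the deposited matrices hold raw UMI counts per gene and barcode, not normalised, made by the authors with Cell Ranger 5.0.0 (2.1.1 per the submitters' processing notes). The genome build and annotation are not given in the sources used here, so no positions or sequences are reported. Symbols are those of the files, and 36 of the 42 were also in the RefSeq table. Totals per library were 9575446 to 24762829 UMIs, and libraries shared 5 to 16 barcodes.

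Barcodes needed 300 genes or more and no more than 20% mitochondrial UMIs, and doublets were removed by rank of the Scrublet score (scanpy 1.11.5) at 0.8% per 1000 barcodes, leaving 3642 to 7396 cells per library with medians of 1467 to 2074 UMIs. Counts were summed per library or gate. The ages of 6 and 18 months were compared with edgeR 4.0.16 (R 4.3.3; TMM, filterByExpr, quasi-likelihood, Benjamini-Hochberg). On simulated data for whole libraries (13553 genes) it recovered 2.67% of 2-fold, 37.3% of 4-fold and 93.3% of 8-fold rises, and 5.47% of calls were false. Both simulations gave every gene the same spread and every library the same makeup, unlike the real libraries. Single libraries got exact Poisson or conditional binomial 95% intervals, which cover counting error only. Alternatives were DESeq2 1.42.0, other scaling, filters and gates, and each library left out.

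The genes and lists were chosen with earlier results of these data known. Named by rule were members past a threshold, the 3 with the most UMIs in each family, those highest outside 4 years, the 5 with the most UMIs in the cattle-yak and those highest in early germ stages. Any other member named was picked with its values in view. Of the gate markers, 12 symbols were not matched in the files, and of the intended TNP1, TNP2, PRM1 and PRM2 split only TNP1 was used.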

Additional observations from a re-analysis of the deposited data

How the results depend on the processing

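No paired analysis was possible because the groups compared share no replicate numbers. The count of members called in whole libraries between 6 and 18 months was 2. It was 5 of 19 with library totals in place of TMM, where 21.8% of all genes rose. Without a filter on low counts it was 6 of 40, where 6.53% rose. With every deposited barcode it was 1 of 20, where 0.793% rose. The calls also changed when 1 library was left out, which leaves 1 library at an age. Without replicate 4, SPATA17, TEKT1, SPATA22 and TEKT5 had higher and SPATA24 and SPATA20 lower values at 18 months. SPAG9 changed sign, to 0.92 (log2), with library totals. In spermatogonia 0 members were called under every alternative that was run, with 0 to 2 at an unadjusted p under 0.05. There SPATA17 changed sign, to -0.94 with doublets kept and to -0.033 with the stage of most marker UMIs, the last chosen after seeing the data, as was pooling the germ gates. With 1 library left out it ranged from -0.89 to 6.52, the latter set by 0 UMIs in the only 6-month library then left, and so no bound. At 4 years, onset in spermatogonia was left for 1 gene at 50% of the highest stage. Onset in early spermatocytes was 2 genes with a gate of 5 UMIs and 10 with the stage of most marker UMIs, where onset in late spermatocytes was 4. By that gate, also chosen afterwards for this comparison, 14 members in place of 9 were higher in yak than in cattle-yak early spermatocytes. The count of members highest in spermatids was 29 or 30 throughout. The cause of these shifts was not tested. With 1 library at 4 years and 1 in the cattle-yak, no difference there has a replicate check, and few gated germ cells stand behind the values at 6 months and in the cattle-yak.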
